A study of Mus musculus with 12 samples.

Results

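The 44 genes described here mark macrophages or encode receptors and enzymes by which these cells sense and engulf their surroundings. They were chosen by name, with earlier results of these data known. All 44 were found among the 18193 genes measured, each read from its brightest probe set on average. The list falls into 11 lineage genes, 15 genes of resident macrophages, 3 genes of alternative activation, 12 genes of inflammatory cells, Fc receptors and pattern receptors, and 3 lipid-associated genes. Expression was measured on 12 one-colour Affymetrix arrays in brown fat of male ob/ob mice, all adult, with 1 array for each mouse. The anti-FGFR1 group comprised 6 mice injected once, into the peritoneum, with 1 mg/kg of an agonistic antibody against the fibroblast growth factor receptor FGFR1. The control IgG group comprised 6 pair-fed mice given a control IgG, whose dose and isotype the labels do not state. Tissue was taken on day 4 after the injection, at an age of 3 months, from mice on normal chow. Both groups carry the ob/ob mutation, which removes leptin and makes the mice obese, and both received an antibody, so there is no uninjected or lean group.

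Macrophages of adipose tissue are partly long-lived resident cells and partly descendants of blood monocytes, and their survival depends on signalling through the receptor Csf1r. Resident cells carry scavenger receptors, lectins and complement C1q and clear dying cells and debris. Recruited cells are commonly marked by the chemokine receptor Ccr2, and cells that load lipid in obese fat by Trem2, its adaptor Tyrobp and Gpnmb. Expression was measured in whole tissue, so more macrophages and more RNA of a gene per macrophage cannot be told apart.

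All values are log2 expression, and differences are anti-FGFR1 minus control IgG on that scale. The deposited values ran from 3.16 to 14.86 and the array medians from 7.19 to 7.23. The brown fat marker Ucp1 was at 14.55 ± 0.05 in anti-FGFR1 mice and 14.52 ± 0.04 in control IgG mice (SD, n = 6 each), near the top of that range. Skeletal muscle RNA varied between dissections. The mean of 14 muscle genes ranged between 6.95 and 11.59 on the anti-FGFR1 arrays and between 9.59 and 11.74 on the control IgG arrays, and was lowest on anti-FGFR1 replicate 5 and control IgG replicate 6. The 3′ minus 5′ signal of the Gapdh and actin control probes, a measure of RNA degradation and labelling, averaged 0.20 ± 0.03 in anti-FGFR1 mice and 0.16 ± 0.03 in control IgG mice (SD, n = 6 each).

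Of the 44 genes, 8 rose in anti-FGFR1 mice (limma, Benjamini-Hochberg adjusted over all 18193 genes, threshold 0.05), against 2.94% of all genes called higher. None of the 44 fell, against 5.09% of all genes called lower. The 8 were Adgre1, Aif1 and Csf1r among the lineage genes, Cd5l and Cd209f among the resident genes, and Fcgr4, Fcgr2b and Clec4n among the inflammatory and receptor genes. The differences were modest, from 0.17 for Cd209f to 0.63 for Adgre1. The estimate was above 0 for 36 of the 44 genes with a median of 0.17, against 53.4% of all genes and a median of 0.01. For 5 of the 44 every anti-FGFR1 array lay above every control IgG array, which held for 1.57% of all genes, and for none did every anti-FGFR1 array lie below, which held for 3.55%. At an unadjusted p under 0.05, 17 of the 44 genes were higher, against 9.97% of all genes, and none was lower, against 12.5%. Because the 44 were chosen with earlier results of these data known, these shares describe the list and do not test it.

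**Figure D1:**
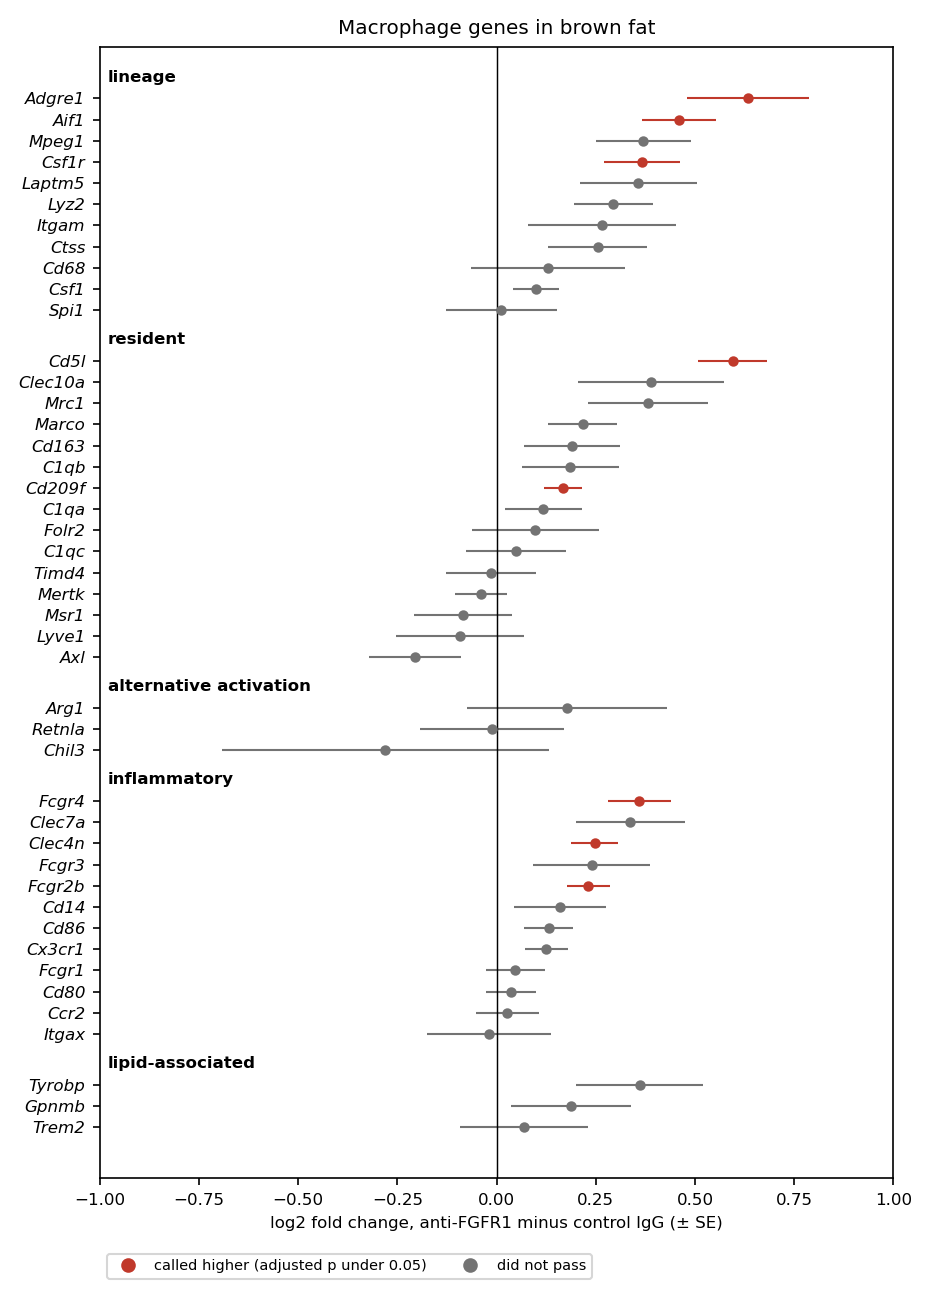
Log2 fold change (anti-FGFR1 minus control IgG, horizontal axis) of each of the 44 genes with its standard error (bars), grouped by role; red points passed the limma test. Of 44 points, 36 lie right of 0, and the 8 that passed run from 0.17 to 0.63.

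The lineage genes were all on the higher side, against 53.4% of all genes, and their median difference was 0.29. Of the 11, 3 passed, against 2.94% of all genes called higher. Adgre1, which encodes the adhesion receptor F4/80, ranged between 10.36 and 11.04 with a median of 10.82 in anti-FGFR1 mice, and between 9.76 and 10.72 with a median of 10.09 in control IgG mice. The groups overlapped: 4 anti-FGFR1 arrays lay above every control IgG array, and control IgG replicate 6 was the highest of its group. The difference was 0.63 ± 0.15 (SE), a 1.55-fold rise (adjusted p = 0.0199). An exact permutation test over the arrays did not pass it after adjustment (p = 0.0959). That test passed only genes whose groups did not overlap, so its result restates the overlap.

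Aif1, which encodes the actin-binding protein Iba1, ranged between 7.12 and 7.31 with a median of 7.19 in anti-FGFR1 mice, and between 6.47 and 7.11 with a median of 6.65 in control IgG mice. All 6 anti-FGFR1 arrays lay above all 6 control IgG arrays, but the gap was narrow, because control IgG replicates 3 and 6 read 6.99 and 7.11. The difference was 0.46 ± 0.09 (SE, adjusted p = 0.0069). Aif1 is a dim probe set, one of 6 members whose mean lies under the median of all values, 7.21, and RMA tends to understate changes there.

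Csf1r, the receptor for the growth factors CSF1 and IL-34, ranged between 11.99 and 12.38 with a median of 12.22 in anti-FGFR1 mice, and between 11.59 and 12.15 with a median of 11.79 in control IgG mice. The groups overlapped, and control IgG replicates 3 and 6 were the highest of their group. The difference was 0.37 ± 0.10 (SE, adjusted p = 0.0305). The other Csf1r probe sets gave 0.36 and 0.31 and did not pass by themselves. The call was lost for the mean of the 3 probe sets (adjusted p = 0.0573). It was also lost in the exact permutation test (adjusted p = 0.116), which passed no gene with overlapping groups. The call was lost when any one of control IgG replicates 1, 2, 4 and 5 or anti-FGFR1 replicates 3, 4, 5 and 6 was left out, where the adjusted p reached 0.0685. Its ligand Csf1 differed by 0.10 ± 0.06 (adjusted p = 0.331) and did not pass.

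The other lineage genes did not pass. Mpeg1, which encodes the pore-forming protein perforin-2, ranged between 11.06 and 11.28 with a median of 11.11 in anti-FGFR1 mice, and between 10.33 and 11.21 with a median of 10.86 in control IgG mice. Lysozyme, Lyz2, ranged between 12.99 and 13.43 with a median of 13.31 in anti-FGFR1 mice, and between 12.73 and 13.34 with a median of 12.96 in control IgG mice. Both genes overlapped between groups, with differences of 0.37 ± 0.12 (adjusted p = 0.0764) and 0.29 ± 0.10 (adjusted p = 0.0861). The lysosomal membrane protein Laptm5 differed by 0.36, the integrin subunit Itgam (CD11b) by 0.27, the lysosomal protease Ctss by 0.25 and the lysosomal glycoprotein Cd68 by 0.13. For Laptm5 the dimmer probe sets gave 0.18, -0.05, -0.02 and 0.13, and the mean of its 5 probe sets gave 0.12 (limma adjusted p = 0.376). Spi1, which encodes PU.1, the transcription factor that directs myeloid development, was at 8.46 ± 0.18 in anti-FGFR1 mice and 8.45 ± 0.36 in control IgG mice (SD, n = 6 each), a difference of 0.01 ± 0.14 (SE).

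**Figure D2:**
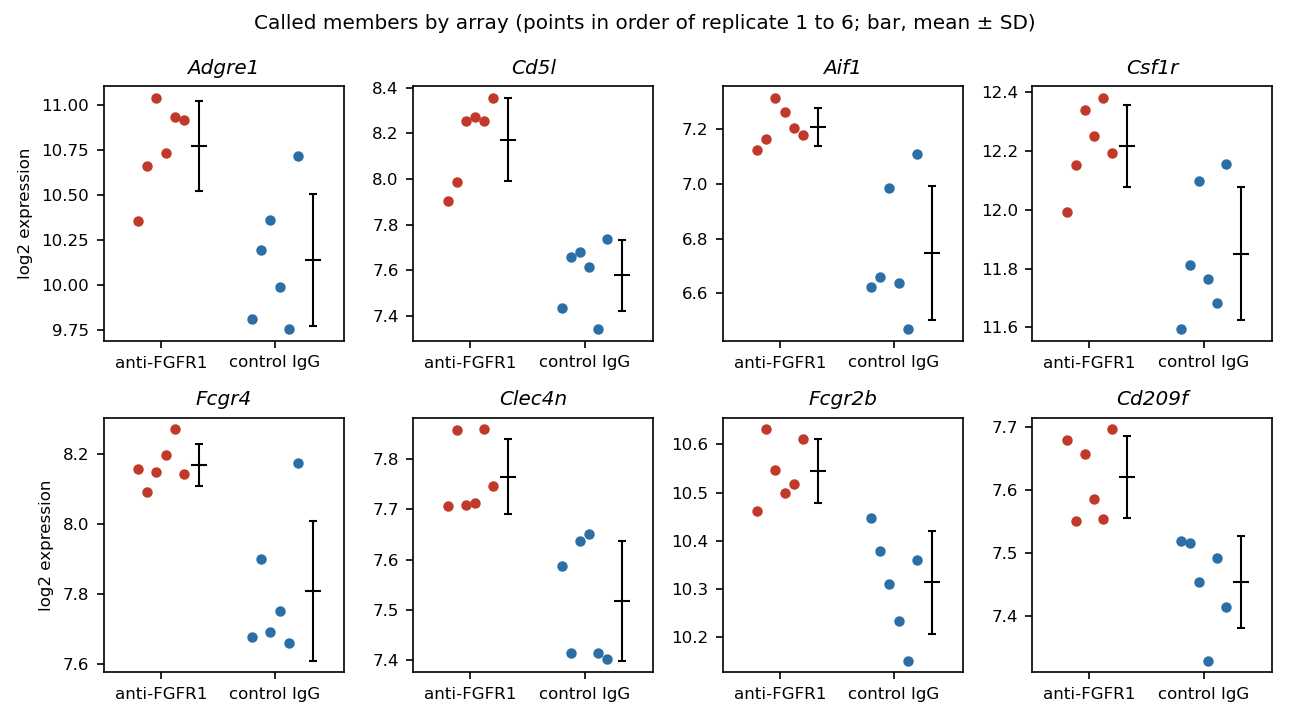
Log2 expression (vertical axis, a separate scale in each panel) of the 8 genes that rose, with 1 point per array, anti-FGFR1 left and control IgG right, and the mean ± SD beside each group. The groups do not overlap for Cd5l, Aif1, Clec4n, Fcgr2b and Cd209f, and control IgG replicate 6 lies among the anti-FGFR1 values for Adgre1, Csf1r and Fcgr4.

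Among the 15 genes of resident macrophages, 2 rose and 13 did not pass, against 2.94% of all genes called higher. Their median difference was 0.12, and 10 estimates (66.7%) were above 0, against 53.4% of all genes. Cd5l, which encodes a secreted scavenger protein that supports macrophage survival, ranged between 7.91 and 8.36 with a median of 8.26 in anti-FGFR1 mice, and between 7.34 and 7.74 with a median of 7.64 in control IgG mice. The 2 groups were apart, and the lowest anti-FGFR1 array was replicate 1. The difference was 0.60 ± 0.09 (SE), a 1.51-fold rise, with the smallest p among the 44 genes (adjusted p = 0.00083). The call held when any 1 of the 12 arrays was left out, with differences between 0.55 and 0.65.

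The lectin gene Cd209f, of the DC-SIGN family, ranged between 7.55 and 7.70 with a median of 7.62 in anti-FGFR1 mice, and between 7.33 and 7.52 with a median of 7.47 in control IgG mice. The arrays of the 2 groups did not overlap, although the difference was small, at 0.17 ± 0.05 (SE, adjusted p = 0.0426). The call was lost when any one of control IgG replicates 3 to 6 or of anti-FGFR1 replicates 1 and 3 to 6 was left out (adjusted p up to 0.0949). It was also lost in 5 of 11 other alternatives, among them median centring (adjusted p = 0.0504) and an intensity trend (adjusted p = 0.0561). With every probe set tested by itself Cd209f did not pass (limma p adjusted over all probe sets, 0.0553). Genes of the DC-SIGN family are similar in sequence, and how far this probe set tells them apart was not tested.

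Several other receptors of resident cells leaned higher without passing. The mannose receptor Mrc1 (CD206) ranged between 10.09 and 10.64 with a median of 10.51 in anti-FGFR1 mice, and between 9.70 and 10.59 with a median of 9.92 in control IgG mice. The class A scavenger receptor Marco, a dim probe set, ranged between 6.52 and 6.79 with a median of 6.63 in anti-FGFR1 mice, and between 6.09 and 6.63 with a median of 6.46 in control IgG mice. The groups overlapped for both, and the differences were 0.38 ± 0.15 (adjusted p = 0.147) and 0.22 ± 0.09 (adjusted p = 0.15). The galactose-binding lectin Clec10a differed by 0.39 ± 0.18 and the haemoglobin scavenger receptor Cd163 by 0.19 ± 0.12.

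None of the genes of clearance and complement passed. The chains of complement C1q, which tags debris for uptake, differed by 0.12 (C1qa), 0.19 (C1qb) and 0.05 (C1qc). The folate receptor Folr2 differed by 0.10, the phosphatidylserine receptor Timd4 by -0.01, the hyaluronan receptor Lyve1 by -0.09 and the scavenger receptor Msr1 by -0.09. The estimates of the receptor kinases Mertk and Axl, by which macrophages take up dying cells, were -0.04 ± 0.07 and -0.21 ± 0.12.

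None of the 3 genes of alternative activation passed, and the levels of Chil3 and Arg1 spread widely from mouse to mouse. The chitinase-like protein gene Chil3 (Ym1, listed under its older name Chi3l3) ranged between 7.14 and 9.53 with a median of 8.03 in anti-FGFR1 mice, and between 7.52 and 9.65 with a median of 8.08 in control IgG mice. Arginase, Arg1, ranged between 5.30 and 7.13 with a median of 6.39 in anti-FGFR1 mice, and between 5.77 and 6.68 with a median of 5.98 in control IgG mice. The ranges overlapped almost throughout, and the differences were -0.28 ± 0.41 (adjusted p = 0.743) and 0.18 ± 0.25 (adjusted p = 0.732). Retnla, which encodes the secreted protein RELM-alpha, differed by -0.01 ± 0.18. The SD of Chil3 was 0.82 in anti-FGFR1 mice and 0.88 in control IgG mice, and that of Arg1 0.60 in anti-FGFR1 mice and 0.42 in control IgG mice (n = 6 each). For Retnla the standard error was close to those of Cd68, Itgam and Clec10a, which were 0.19, 0.19 and 0.18.

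Of the 12 inflammatory and receptor genes, 3 rose and 9 did not pass, against 2.94% of all genes called higher. Their median difference was 0.15. Fcgr4, an activating receptor for IgG, ranged between 8.09 and 8.27 with a median of 8.15 in anti-FGFR1 mice, and between 7.66 and 8.17 with a median of 7.72 in control IgG mice. The overlap came from control IgG replicate 6, at 8.17, while the other 5 controls were at or under 7.90. The difference was 0.36 ± 0.08 (SE, adjusted p = 0.011). It did not pass the exact permutation test (adjusted p = 0.0959), which passed no gene with overlapping groups.

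Fcgr2b, the inhibitory receptor for IgG, ranged between 10.46 and 10.63 with a median of 10.53 in anti-FGFR1 mice, and between 10.15 and 10.45 with a median of 10.34 in control IgG mice. Its groups did not overlap, and the difference was 0.23 ± 0.05 (SE, adjusted p = 0.0165). Without the probe sets ending in _s_at, _x_at or _a_at, a dim one remained (0.00, adjusted p = 0.999) and the call was lost. The other IgG receptors did not pass, with 0.24 ± 0.15 for Fcgr3 and 0.05 ± 0.07 for the high-affinity receptor Fcgr1. The size of the Fcgr1 estimate varied with the probe set. Its second, dimmer probe set gave 0.41 ± 0.20 and did not pass by itself. The mean of both Fcgr1 probe sets gave 0.23 ± 0.12 (limma adjusted p = 0.279).

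Clec4n, which encodes Dectin-2, a receptor for fungal mannans, ranged between 7.71 and 7.86 with a median of 7.73 in anti-FGFR1 mice, and between 7.40 and 7.65 with a median of 7.50 in control IgG mice. All anti-FGFR1 arrays were above all controls, with a difference of 0.25 ± 0.06 (SE, adjusted p = 0.017). Its second, dimmer probe set gave 0.16 ± 0.13 and did not pass. The call was lost for the mean of both probe sets (0.21, adjusted p = 0.134) and without the 2 arrays lowest in muscle RNA (0.20, adjusted p = 0.0785).

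The receptor for fungal glucans, Clec7a (Dectin-1), ranged between 8.997 and 9.57 with a median of 9.33 in anti-FGFR1 mice, and between 8.43 and 9.31 with a median of 9.14 in control IgG mice. The fractalkine receptor Cx3cr1 ranged between 6.50 and 6.70 with a median of 6.63 in anti-FGFR1 mice, and between 6.39 and 6.65 with a median of 6.46 in control IgG mice. Both overlapped, and their differences of 0.34 ± 0.14 (adjusted p = 0.158) and 0.12 ± 0.05 (adjusted p = 0.187) did not pass. The lipopolysaccharide co-receptor Cd14 differed by 0.16, the costimulatory ligands Cd86 and Cd80 by 0.13 and 0.04, and the integrin Itgax (CD11c) by -0.02.

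Of the 3 lipid-associated genes none passed, and all 3 estimates were above 0. The signalling adaptor Tyrobp (DAP12) ranged between 11.02 and 11.66 with a median of 11.52 in anti-FGFR1 mice, and between 10.64 and 11.67 with a median of 11.06 in control IgG mice. The lysosomal glycoprotein Gpnmb ranged between 11.58 and 12.10 with a median of 12.01 in anti-FGFR1 mice, and between 11.39 and 12.32 with a median of 11.66 in control IgG mice. Both overlapped, with differences of 0.36 ± 0.16 (adjusted p = 0.2) and 0.19 ± 0.15 (adjusted p = 0.503). The lipid receptor Trem2, which signals through Tyrobp, differed by 0.07 ± 0.16. Of 15 further measured genes of lipid-laden macrophages none passed, with a median of 0.02. The smallest p values among them were those of the fatty acid binding protein Fabp5 (0.20, adjusted p = 0.189), the fatty acid transporter Cd36 (-0.08, adjusted p = 0.288) and apolipoprotein Apoe (-0.11, adjusted p = 0.417), several of which adipocytes also express.

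The monocyte chemokine receptor Ccr2 depended on the probe set. The brightest one, used throughout, ranged between 9.16 and 9.47 with a median of 9.25 in anti-FGFR1 mice, and between 9.04 and 9.52 with a median of 9.21 in control IgG mice, a difference of 0.03 ± 0.08 (adjusted p = 0.884). The other 3 probe sets were higher on all 6 anti-FGFR1 arrays than on any control array. Their medians were 8.32, 7.85 and 7.99 in anti-FGFR1 mice and 7.94, 7.26 and 7.19 in control IgG mice. With every probe set tested by itself, an analysis added after the data were seen, these 3 differed by 0.47 ± 0.09, 0.75 ± 0.16 and 0.89 ± 0.19 (limma p adjusted over 34945 probe sets, 0.0051, 0.0104 and 0.012). The mean over the probe sets gave 0.53 ± 0.10 (adjusted p = 0.005). The files do not say which transcripts or exons each probe set reads, so the direction for Ccr2 is not settled here.

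Over the 77 probe sets of the 44 genes, 12 rose, against 2.15% of all 34945 probe sets, and 2 fell, against 4.75%. The 2 that fell were the dimmest probe sets of Axl (-0.24 ± 0.07, adjusted p = 0.045) and Msr1 (-0.24 ± 0.07, adjusted p = 0.0409). Several probe sets served 17 genes, and for 5 of these (Laptm5, Csf1, Cd80, Msr1 and Marco) the estimates lay on both sides of 0. For Fcgr2b, 3 of 5 probe sets rose, by 0.23, 0.39 and 0.34, a further one gave 0.31 (adjusted p = 0.0551) and a dim one 0.00.

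**Figure D3:**
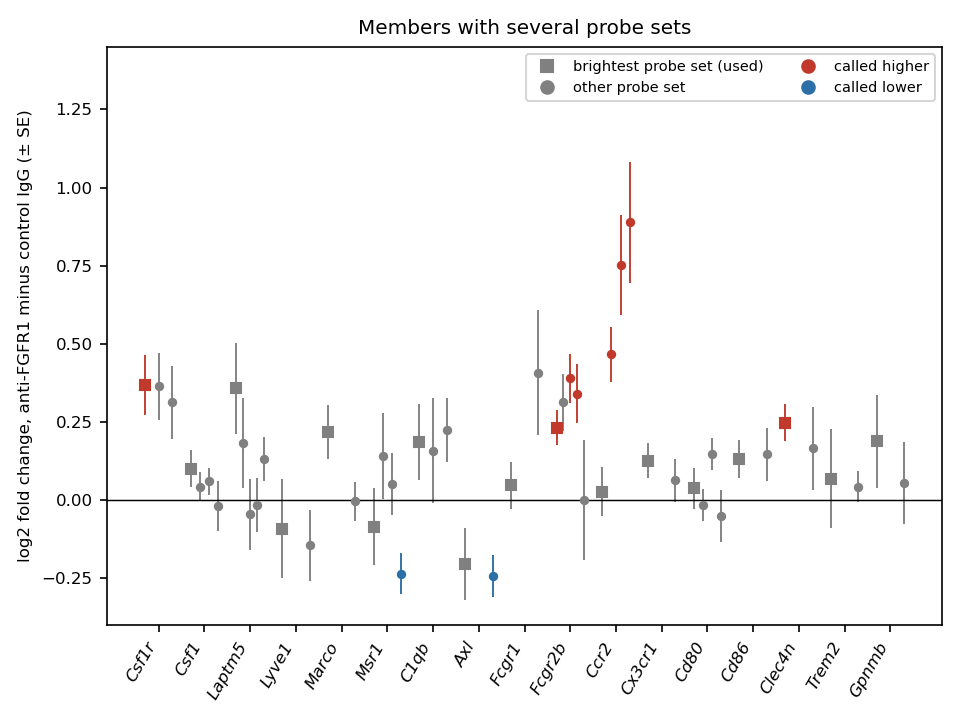
Log2 fold change (anti-FGFR1 minus control IgG) with its standard error for each probe set of the 17 genes that have several; squares are the brightest probe set, red and blue mark those called higher and lower over all probe sets. The 3 dimmer probe sets of Ccr2 lie between 0.47 and 0.89 while the brightest lies at 0.03.

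The animals of a group differed in a way that most of the 44 genes shared. Control IgG replicate 6 was the highest control for 34 of the 44 genes, against 19.2% of all genes, and the highest of all 12 arrays for 19. Anti-FGFR1 replicate 1 was the lowest of its group for 30 of the 44, against 17.3% of all genes, and control IgG replicates 1 and 5 were the lowest controls for 22 and 13. The mean over the 44 genes was 9.03, 9.22, 9.39, 9.26, 9.36 and 9.35 on anti-FGFR1 replicates 1 to 6, and 8.87, 9.01, 9.26, 9.02, 8.93 and 9.47 on control IgG replicates 1 to 6. The highest mean was that of a control IgG mouse, and the 4 lowest were those of control IgG replicates 1, 2, 4 and 5. The median SD over the 44 genes was 0.18 in anti-FGFR1 mice and 0.31 in control IgG mice, while over all genes it was 0.09 in anti-FGFR1 mice and 0.12 in control IgG mice.

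**Figure D4:**
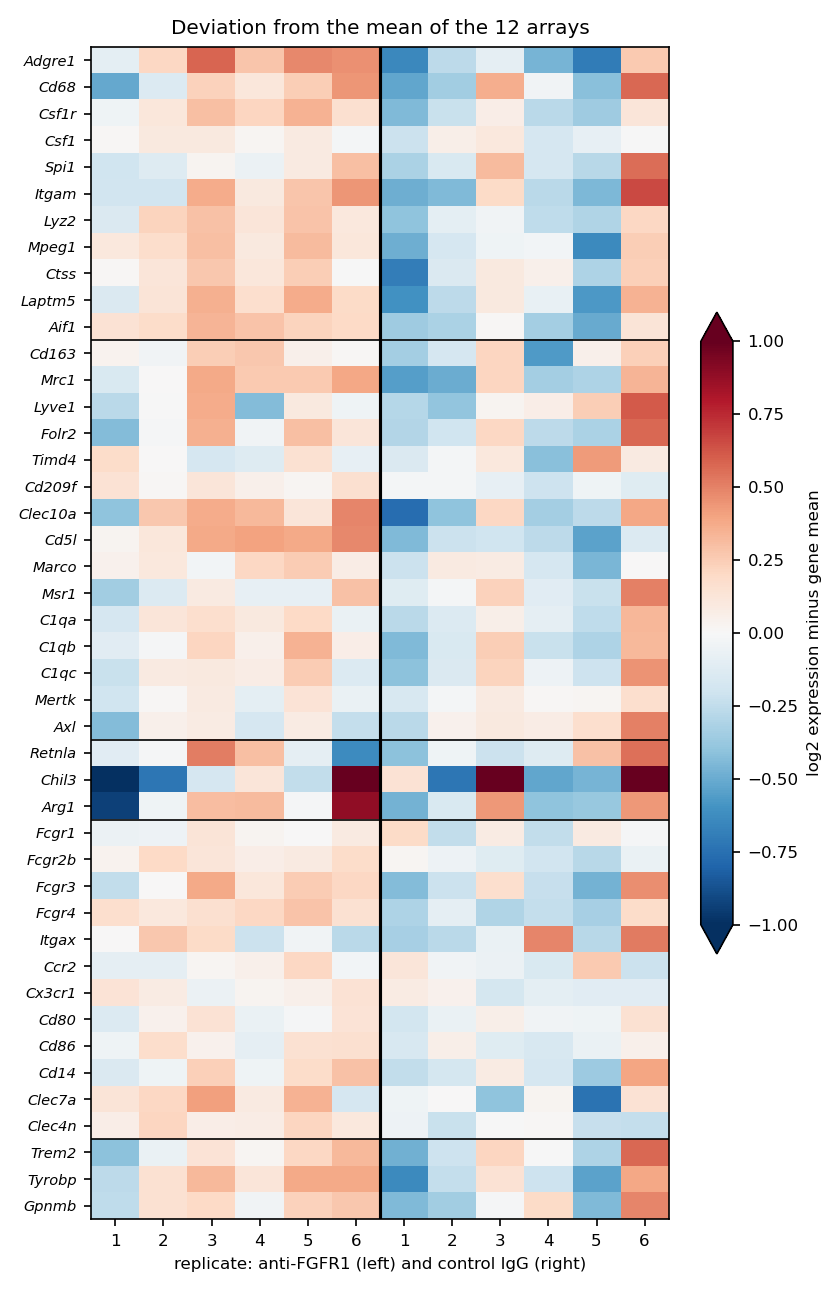
Deviation of each of the 44 genes (rows) from its mean over the 12 arrays (log2, colour scale at the side; values beyond it take the end colours), with anti-FGFR1 replicates left and control IgG replicates right of the thick line. Control IgG replicate 6 is red for most genes, and control IgG replicates 1 and 5 are blue for most.

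Control IgG replicate 6 was also low in skeletal muscle RNA, at 9.59, and high in the mean of 13 genes of the phagocyte oxidase and of leukocytes in general, at 9.85 against a range of 8.91 to 9.54 in the other 5 controls. Without it 11 of the 44 genes were called higher, against 2.86% of all genes. Lyz2 (0.36, adjusted p = 0.0206), Mpeg1 (0.46, adjusted p = 0.0166), Laptm5 (0.46, adjusted p = 0.0435) and Mrc1 (0.49, adjusted p = 0.0419) were added, Cd209f was lost (adjusted p = 0.0777), and the median over the 44 genes was 0.24. Lyz2 was also called without anti-FGFR1 replicate 1 (0.35, adjusted p = 0.041). Without the 2 arrays lowest in muscle RNA 8 genes were called, against 2.12% of all genes, but not the same 8. Lyz2 (adjusted p = 0.0448) and Mpeg1 (adjusted p = 0.0364) were added, and Cd209f (adjusted p = 0.0886) and Clec4n (adjusted p = 0.0785) were lost. With the muscle mean as a covariate the same 8 genes were called as without it, against 2.5% of all genes. With the 3′ minus 5′ signal as a covariate 3 were called, Csf1r, Aif1 and Cd5l, against 1.54% of all genes. Adgre1 (0.75, adjusted p = 0.0509) and Fcgr4 (0.39, adjusted p = 0.0552) then had larger differences with larger errors, while Fcgr2b (0.16, adjusted p = 0.218), Clec4n (0.22, adjusted p = 0.15) and Cd209f (0.15, adjusted p = 0.244) had smaller differences. The part of muscle RNA and of RNA quality in the differences between the groups was not tested further.

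Because the leukocyte mean moved with the 44 genes from array to array, it was also entered as a covariate, a choice made after the data were seen. It ranged between 9.17 and 9.78 in anti-FGFR1 mice and between 8.91 and 9.85 in control IgG mice, and macrophages themselves express many of its genes. At a given leukocyte mean the same 8 genes were called higher, against 3.91% of all genes. Cd5l then differed by 0.48 ± 0.07 (adjusted p = 0.00075), Adgre1 by 0.38 ± 0.06 (adjusted p = 0.002), Aif1 by 0.33 ± 0.06 (adjusted p = 0.0049) and Csf1r by 0.22 ± 0.06 (adjusted p = 0.0246).

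With the covariate 4 genes were called lower, against 7.19% of all genes. They were Msr1 at -0.29 ± 0.05 (adjusted p = 0.005), Spi1 at -0.22 ± 0.05 (adjusted p = 0.0164), Trem2 at -0.20 ± 0.05 (adjusted p = 0.0244) and Axl at -0.34 ± 0.10 (adjusted p = 0.0419). Of the 44 estimates 24 were then above 0, with a median of 0.05. The share of the 44 called lower, 4 genes, lay near that of all genes.

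**Figure D5:**
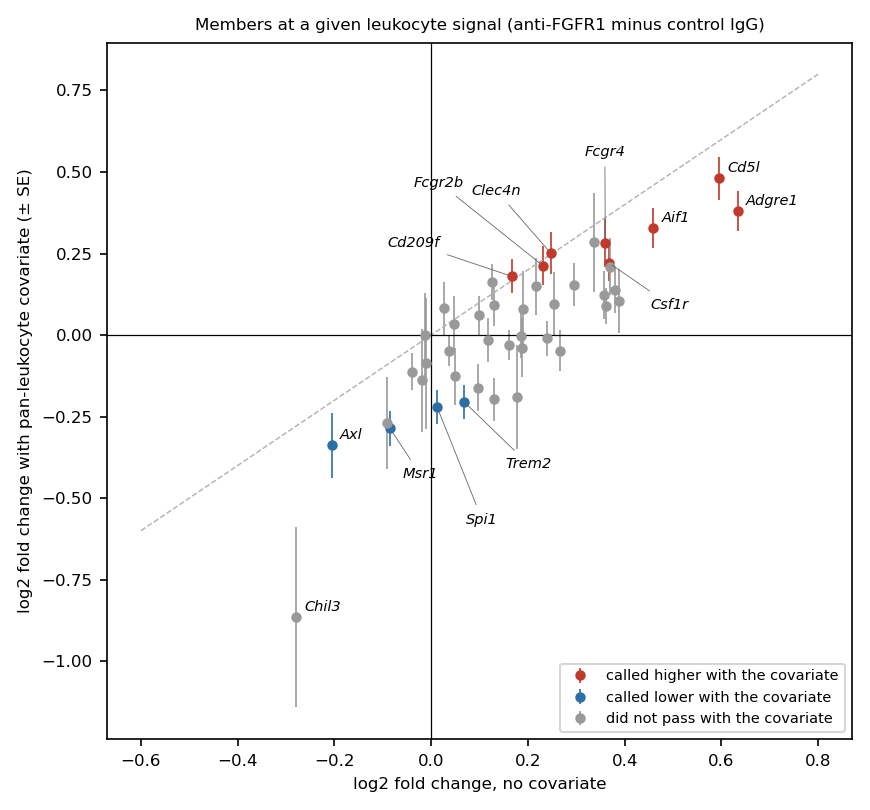
Log2 fold change (anti-FGFR1 minus control IgG) of the 44 genes without a covariate (horizontal axis) and with the mean of 13 leukocyte genes as a covariate (vertical axis, bars SE); the dashed line marks equal values. The 8 red genes stay above 0, and Msr1, Spi1, Trem2 and Axl (blue) are called lower with the covariate.

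Genes beside the 44, on lists drawn up with earlier results of these data known, gave the following counts. Of all genes, 2.94% were called higher and 5.09% lower, and 53.4% had an estimate above 0. Of 15 further genes of resident macrophages, 2 rose, Ms4a7, a membrane protein of the Ms4a family, by 0.50 ± 0.12 (adjusted p = 0.018) and F13a1, a coagulation factor subunit made by macrophages, by 0.49 ± 0.12 (adjusted p = 0.019). The lectin gene Cd209d gave 0.31 (adjusted p = 0.0642). Of 11 transcription factors used by macrophages, Maf, which promotes genes of resident cells, rose by 0.46 ± 0.13 (adjusted p = 0.0466) and the liver X receptor Nr1h3, a sensor of oxysterols, by 0.21 ± 0.05 (adjusted p = 0.0323). Id3, an inhibitor of differentiation factors, fell by 0.37 ± 0.10 (adjusted p = 0.0401). Adipocytes and other cells of the tissue express Nr1h3 and Id3 too.

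Of the 13 oxidase and leukocyte genes 1 rose, Cd52, a short membrane glycoprotein of leukocytes, by 0.57 ± 0.13 (adjusted p = 0.0117), and all 13 estimates were above 0, with a median of 0.23. Cybb, the catalytic subunit of the phagocyte oxidase, gave 0.48 (adjusted p = 0.0946) and Ptprc (CD45) 0.35 (adjusted p = 0.203). None of 15 genes of phagocyte signalling and adhesion passed, with Plcg2 at 0.21 (adjusted p = 0.0725), Fcer1g, the chain through which activating Fc receptors signal, at 0.32 (adjusted p = 0.176), and the second Csf1r ligand Il34 at -0.19 (adjusted p = 0.261). None of 12 inflammatory cytokine and chemokine genes passed. Il1b was higher on all 6 anti-FGFR1 arrays than on any control array, but by 0.13 ± 0.04 (adjusted p = 0.0601). Il6 gave -0.15 (adjusted p = 0.123) and Ptgs2 0.12 (adjusted p = 0.177).

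Markers of other cells moved as follows, and their part in the values of the 44 genes was not tested. Of 6 monocyte markers 1 rose, Vcan (0.21, adjusted p = 0.0332), against 2.94% of all genes. Its probe set was dim, at 7.14 in anti-FGFR1 mice and 6.93 in control IgG mice. Estimates were above 0 for all 6 monocyte, 7 B cell and 8 neutrophil markers, against 53.4% of all genes. Estimates were also above 0 for 7 of 9 T cell, 5 of 7 mast cell, 6 of 9 dendritic cell and 1 of 5 lymphatic endothelium markers. Of 7 B cell markers 2 rose, the surface protein Ms4a1 (0.22, adjusted p = 0.0102) and the immunoglobulin heavy chain Ighm (0.68, adjusted p = 0.0345), and the mean of the 7 ranged between 6.74 and 7.08 in anti-FGFR1 mice and between 6.63 and 6.73 in control IgG mice. Of 7 mast cell markers the proteases Cma1 (0.29, adjusted p = 0.0057) and Cpa3 (0.39, adjusted p = 0.0247) rose and the receptor Kit fell (-0.51, adjusted p = 0.0266). No marker passed among 9 of dendritic cells, 8 of neutrophils, 9 of T cells and 5 of lymphatic endothelium, a cell type that also carries Lyve1. None of the 14 muscle genes passed, but all 14 estimates were below 0, from -0.889 to -0.0953, with a median of -0.71. Of 6 adipocyte markers 1 fell, the leptin gene Lep (-0.56, adjusted p = 0.004). The neutrophil mean ranged between 7.003 and 7.11 in anti-FGFR1 mice and between 6.85 and 7.11 in control IgG mice, and the T cell mean between 7.07 and 7.18 in anti-FGFR1 mice and between 6.92 and 7.19 in control IgG mice.

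The promoters of the genes were compared as sequence, using RefSeq windows of 300 bases on GRCm38.p6, of which 250 lie before the start. A window was given for 32 of the 44 genes, 5 of them among the 8 that rose. In all, 8 strings of letters were searched on both strands, and the ones shown were chosen after the counts were seen. The string GAGGAAGT, which PU.1, the product of Spi1, is known to prefer, was in 4 of 32 genes (12.5%), C1qc, Ctss, Fcgr4 and Retnla, against 3.69% of 27025 genes with a window. Of the strings that overlap it, AGGAAGT was in 10 of the 32 genes (all genes 10.7%), the string GAGGAAG in 13 (all genes 15.4%) and the string AGAGGAAGT in 1 (all genes 1.18%). The string TGCTGAC, found in sites of Maf factors, was in 3 (all genes 5.28%). The TATA box string TATAAA was in 7 (all genes 15.7%), the C/EBP string TTGCGCAA in none (all genes 0.207%) and the string CACATCCT in none (all genes 1.7%). The stretches of Fcgr4, C1qc and Retnla that hold the PU.1 string, read 5′ to 3′ on the strand of the gene, are shown because 1 of these genes rose and 2 did not. Capitals mark the string, which lies on the opposite strand in each.
Fcgr4, chr1:171018882-171018925, plus strand: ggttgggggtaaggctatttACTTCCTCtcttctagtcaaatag
C1qc, chr4:136893082-136893129, minus strand: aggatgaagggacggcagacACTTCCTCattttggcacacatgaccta
Retnla, chr16:48842391-48842438, plus strand: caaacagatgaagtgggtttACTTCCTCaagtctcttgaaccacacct

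The string began 24 bases before the start in Fcgr4, 195 in C1qc and 198 in Retnla. Fcgr4 differed by 0.36 between the groups, C1qc by 0.05 and Retnla by -0.01. Ctss, the fourth gene with the string, differed by 0.25 and did not pass. Its match reaches past the start and is not shown. The 250 bases before the start are shown for Cd5l and Aif1. These are the 2 genes whose calls held in every alternative that could be run for them. Neither holds GAGGAAGT, which says only that these letters are not in this window. The Cd5l window holds the shorter string GAGGAAG, on the opposite strand.
Cd5l, chr3:87357631-87357880, plus strand: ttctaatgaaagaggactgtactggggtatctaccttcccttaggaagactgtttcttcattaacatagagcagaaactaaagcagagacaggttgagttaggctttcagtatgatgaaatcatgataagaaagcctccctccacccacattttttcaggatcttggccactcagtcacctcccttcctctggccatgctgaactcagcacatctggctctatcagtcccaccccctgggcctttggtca
Aif1, chr17:35176053-35176302, minus strand: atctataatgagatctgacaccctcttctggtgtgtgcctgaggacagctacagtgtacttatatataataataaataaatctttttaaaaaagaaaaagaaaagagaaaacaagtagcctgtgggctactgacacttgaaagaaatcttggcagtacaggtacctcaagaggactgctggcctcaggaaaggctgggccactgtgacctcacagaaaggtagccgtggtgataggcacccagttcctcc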

How the data were processed

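Per the labels, total RNA of brown adipose tissue was extracted with QIAzol and hybridised, biotin-labelled, to one-colour arrays. The deposited values are log2 expression, 1 per probe set and array, made by the authors with RMA and limma per the submitters' processing notes, with no version given. RMA corrects background, normalizes the arrays together and summarises probes, which shrinks changes of dim probe sets. No detection calls, scan dates or slides are given in the sources used here, so another background correction and a slide block could not be run. Arrays give no counts, and their number limits the precision.

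Of 45101 probe sets, 34945 had 1 gene, 932 several, 9160 none listed, and 64 were controls. The Entrez identifiers of 34741 were found in the RefSeq gene table, and the brightest probe set was kept for each of 18193 genes. limma 3.58.1 (R 4.3.3; lmFit and eBayes, two-sided, no covariate) compared 6 with 6 arrays, adjusted by Benjamini-Hochberg over all genes, and the fit was tested on simulated data. Summaries and figures used Python 3.11.15, pandas 2.3.3 and matplotlib 3.10.9. No pair of arrays shared more than 0.0665% of values. The 44 genes and all further lists were chosen with earlier results of these data known. Values in every array were given for genes that passed and for up to 2 others per role with the smallest p, and for each further list up to 3 genes with the smallest p; Ccr2 was singled out after its values were seen.

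Alternatives were a second quantile normalization, median centring, means over probe sets, omission of probe sets ending in _s_at, _x_at or _a_at, and bright genes only. Also run were covariates for 3′ minus 5′ signal and muscle RNA, omission of the 2 arrays lowest in muscle, and a replicate block. The last were an intensity trend, array weights, an exact permutation test over 924 assignments, and omission of each array. A leukocyte covariate and a fit of each probe set were added after the data were seen.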

Additional observations from a re-analysis of the deposited data

How the results depend on the processing

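The 44 genes gave 8 higher calls. Omission of each array gave 6 to 11, with 364 to 585 called higher over all genes. The other alternatives gave 7 to 9, with 385 to 732 over all genes, apart from the following. Without probe sets ending in _s_at, _x_at or _a_at there were 3, and 419 over all genes tested in that setting. In that setting 38 genes were tested, Adgre1, Aif1, Cd209f and Clec4n were not among them, and Fcgr2b was lost. The 3′ minus 5′ covariate gave 3. The exact permutation test, whose smallest unadjusted p is 0.0022, gave 5. After adjustment it passed only genes whose groups did not overlap, so it is no separate check of the others. With the replicate block there were 9, against 535 of all 18193 genes, with Lyz2, Mrc1 and Clec10a added and Cd209f and Clec4n lost. Deviations of same-numbered arrays correlated at 0.285, 0.329, 0.218, -0.004, -0.295 and -0.124. These were not compared with differently numbered arrays, so they cannot decide whether the numbers pair the mice, which the labels do not state. Lower calls were 0, but 1 with means over probe sets (Axl) and 4 with the leukocyte covariate. Over all genes, 535 were called higher and 926 lower, 281 and 407 with the 3′ minus 5′ covariate, 286 higher by permutation, and 732 and 760 after a second quantile normalization.

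No gene that passed changed direction. Estimates of genes that had not passed changed sign as follows, each smaller than its standard error except with the leukocyte covariate; the cause was not tested. After a second quantile normalization these were Retnla 0.021 and Itgax 0.013. Without probe sets ending in _s_at, _x_at or _a_at these were Laptm5 -0.016 and Cd80 -0.016. With the 3′ minus 5′ covariate these were Timd4 0.0026, Msr1 0.017, Mertk 0.0029, Retnla 0.089 and Chil3 0.12. With the muscle covariate these were Spi1 -0.025 and C1qc -0.0046. Without the 2 arrays lowest in muscle RNA these were Msr1 0.014, Retnla 0.11, Itgax 0.088 and Ccr2 -0.053. With array weights these were Spi1 -0.034 and Retnla 0.081. With the leukocyte covariate these were Cd68 -0.20, Spi1 -0.22, Itgam -0.048, Folr2 -0.16, Timd4 0.0014, C1qa -0.016, C1qb -0.0024, C1qc -0.13, Arg1 -0.19, Fcgr3 -0.0093, Cd80 -0.048, Cd14 -0.032, Trem2 -0.20 and Gpnmb -0.039. Omission of each array gave differences on both sides of 0 for Spi1 -0.0495 to 0.13, Lyve1 -0.18 to 0.022, Timd4 -0.10 to 0.071, Msr1 -0.15 to 0.0068, C1qc -0.028 to 0.14, Retnla -0.11 to 0.11, Itgax -0.088 to 0.083, Ccr2 -0.014 to 0.083 and Trem2 -0.022 to 0.19.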
